A study of Drosophila melanogaster with 2 samples.

Results

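The pericentromeric ends of 4 large chromosome arms were examined in the Hi-C interaction map of Kc167 cells, an established embryonic cell line of Drosophila melanogaster. Hi-C joins DNA ends that lie close together in fixed nuclei, so that each sequenced pair, or di-tag, counts as 1 contact between 2 genomic positions. The map is a single group of untreated cells, digested with DpnII and sequenced as 2 replicates that the authors pooled, and it is given in 10 kb bins on release 5 of the genome. No value below therefore has a spread between replicates and no test between groups was possible. The intervals are 95% intervals for counting error alone, and PCR copies of a ligation product would make them too narrow.

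Members were all 10 kb bins with at least 1 di-tag in 4 segments chosen by position, which lie on 2L from 21000001 to 23010000, on 3L from 22500001 to 24540000, on 3R from 1 to 2000000 and on X from 20400001 to 22422827. There are 789 such bins, of 808 positions, among 12752 filled bins in the whole map. The segments hold 191 (2L), 204 (3L), 200 (3R) and 194 (X) filled bins. They were compared with the mid-arm bins of the same arms, between 25 and 75% of the length of the arm (4880 filled bins), and for context with the megabase nearest the telomere (384 filled bins). The proximal end of 2R is not a member and serves only as a partner.

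The centromeres of Drosophila lie in blocks of heterochromatin built of satellite repeats and remnants of transposable elements, marked by methylation of histone H3 on lysine 9 and bound by the protein HP1a. In many nuclei these blocks gather in a chromocentre, and genes moved next to them can be silenced in some cells and not in others, known as position-effect variegation. The assembled arms stop inside or beside this heterochromatin. In release 5 further heterochromatic sequence is held in separate scaffolds, 2LHet, 2RHet, 3LHet, 3RHet, XHet and YHet, named after the arm to which they belong but not joined to it. Contacts with these Het arms are therefore counted here as trans contacts, that is contacts between bins on differently named arms, as are contacts between 2L and 2R or between 3L and 3R. For the members no sequence is shown, since a release 5 genome was not used here.

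The ends of the assembled arms were unevenly covered. The median total was 4779 di-tags per filled bin in the segments (95% interval 4511 to 5036) and 5590.5 in the mid-arm bins (5549 to 5643). The 3R segment was the exception, with a median of 7125 against 6056 in its mid-arm. The median was 5437 against 5958.5 on 2L, 1975.5 against 5250 on 3L and 4125.5 against 5123 on X. Thus 3L is the most thinly covered of the 4 segments and 3R is above its own arm. In the megabase nearest the centromere the medians were 3424 (2L), 1295.5 (3L), 7191 (3R) and 3014.5 (X).

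The totals of single members ranged from 1 to 11434 di-tags. A total below 0.25 of the arm median was found for 131 members, with 31 on 2L, 66 on 3L, 1 on 3R and 33 on X. The same was found for 38 of the 4880 mid-arm bins and 12 of the 384 telomeric bins. Runs of at least 3 neighbouring bins with under 10 di-tags each lie at 21420001 to 21540000 on 2L (120 kb with 12 di-tags), 22770001 to 22800000 on 2L, and 21550001 to 21600000 and 21690001 to 21770000 on X. The base of 2L is known to carry the tandem array of histone genes, but which genes lie in these runs was not looked up, and the share of each bin to which short reads map uniquely was not measured.

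A larger part of the contacts of the segments left their own arm. Trans contacts made up 15.8% of the di-tags of the segments (95% interval 15.8 to 15.9%) and 11.7% of those of the mid-arm bins. The share was 16.8% on 2L, 21.9% on 3L, 12.8% on 3R and 15.7% on X, against 11.3, 12.03, 10.8 and 13.2% in the mid-arms. Each segment is above the mid-arm of its own arm. Nearest the centromere the share was higher again, at 21.7% (2L), 37.0% (3L), 13.8% (3R) and 20.2% (X) for the inner 1 Mb. The telomeric megabases, at 13.9%, lie between segments and mid-arms. Counting partners on the large arms only, the share was 13.4% in the segments and 11.2% in the mid-arm bins. Part of the excess is thus contact with other large arms and part is contact with the Het arms. With partners on the large arms only, the telomeric megabases also stood at 13.4%, so that this part is not particular to the segments.

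The Het arms were contacted mostly by the last part of each segment. Het arms took 13.1% of the trans di-tags of the segments (95% interval 13.0 to 13.2%), 3.30% of those of the mid-arm bins and 2.53% of those near telomeres. The shares were 10.3% for 2L, 23.7% for 3L, 10.1% for 3R and 11.0% for X, all above the 2.78 to 3.73% of the 4 mid-arms. The segments are 6.67% of the filled large-arm bins and hold 7.33% of the trans contact ends of the large arms, but 74787 of the 325663 di-tags between large arms and Het arms, or 23.0%. The result depends partly on how it is averaged. The ratio of segments to mid-arm bins was 3.96 for summed di-tags (95% interval 3.93 to 4.00) and 2.46 for the median over bins.

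**Figure D1:**
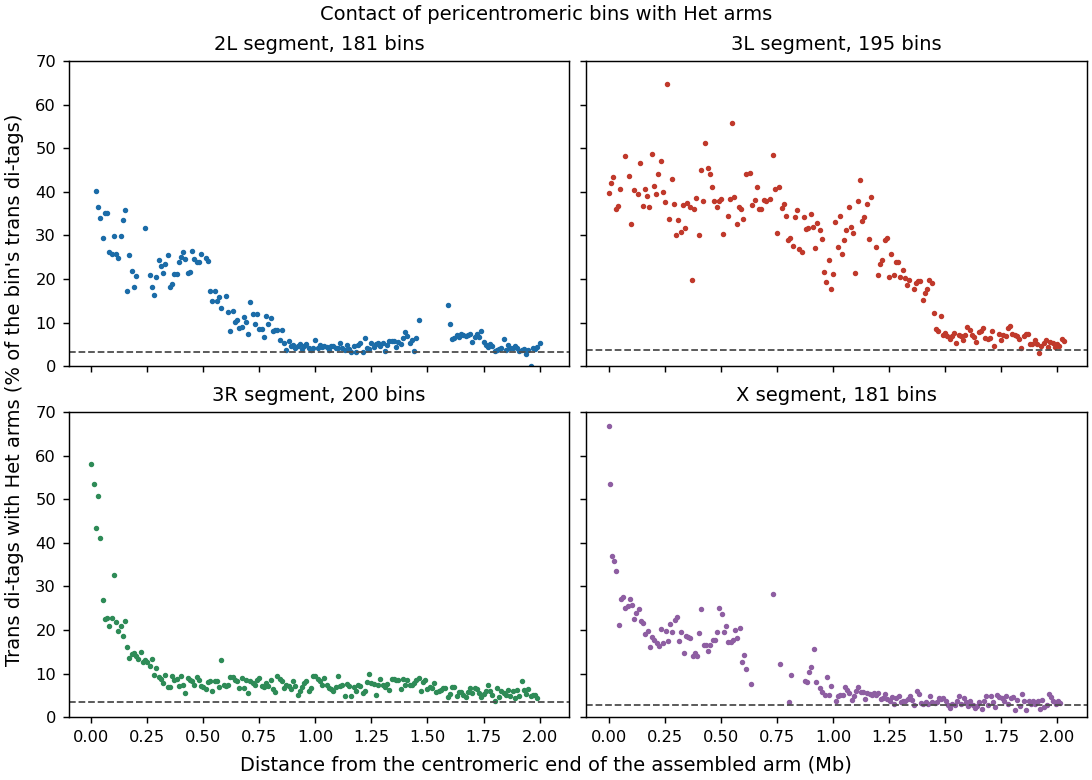
Share of the trans di-tags of each member bin that joins it to a Het arm (percent, vertical axis) against distance from the centromeric end of the assembled arm (Mb), for bins with at least 20 trans di-tags. Each point is a 10 kb bin and the dashed line is the mid-arm of the same arm. The shares on 3L stay high for about 1.5 Mb, whereas those on 3R fall within about 0.25 Mb.

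How far this contact reached differed among the arms. Of 757 members with at least 20 trans di-tags, 303 had at least 10% of them on Het arms, with 66 of 181 on 2L, 139 of 195 on 3L, 30 of 200 on 3R and 68 of 181 on X. Over all bins tested on the 4 arms the share was 3.19%, or 308 bins of 9670, so that only 5 of the 8913 bins outside the segments passed the same limit. On 3L every tested bin up to 1460 kb from the centromeric end passed, and the farthest that passed lies within 1490 kb. On 2L the bin nearest the centromere that did not pass lies at 620 kb and the farthest that did within 1600 kb. The corresponding distances were 280 and 590 kb on 3R and 633 and 923 kb on X. Several of these limits rest on single bins, some with few di-tags. The farthest bin that passed had 12 of 86 trans di-tags on Het arms on 2L, and 29 of 221 on 3R. The nearest that did not pass had 2 of 25 on 2L and 2 of 26 on X. The sharpness of the edges is therefore not ranked.

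In steps of 250 kb from the centromeric end of 3L the share of trans di-tags on Het arms was 40.8, 37.6, 37.1, 30.2, 28.9, 18.6, 7.06 and 6.32%. On 3R it was 25.7% in the step nearest the centromere and 8.90% in the next. On 2L it was 28.2, 22.5, 13.1 and 6.13% over the same 4 innermost steps, and on X 24.6, 18.2, 19.1 and 7.83%. The median total of the bins changed at about the same place on 3L, from 2556 di-tags in the step that starts at 1250 kb to 5491 in the next, and on 2L, from 2770 in the step that starts at 500 kb to 7097 in the next. On 3R it did not, with 6776 and 6722 in the steps on either side of its fall. Over all segments together, the Het share was 3.96 times that of the mid-arm bins, and 3.75 times with low-total bins left out. On 3L this left out 66 of 204 filled bins. The part that low coverage plays in these shares, or in where they fall along the arms, was not tested.

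Each segment contacted above all the Het arm of its own name. To compare arms, di-tags with a Het arm were divided by the trans di-tags of the same bins with the large arms. The 2L segment had 44.6 di-tags with 2LHet per 1000 such di-tags and the mid-arm of 2L had 1.89, a ratio of 23.7 (95% interval 22.3 to 25.1). The 3L segment had 254 with 3LHet against 17.7 in its mid-arm, a ratio of 14.4 (14.1 to 14.7). The 3R segment had 81.2 with 3RHet against 13.3, a ratio of 6.10 (5.95 to 6.26). The X segment had 86.1 with XHet against 1.93, a ratio of 44.7 (42.2 to 47.3). Own Het arms thus gave the highest ratio for each of the 4 segments, and the 4 intervals do not overlap.

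The Het arm of the other arm of the same chromosome came next, with YHet left aside. The ratio was 3.76 for 2L with 2RHet (95% interval 3.63 to 3.90) and 3.56 for 3L with 3RHet (3.42 to 3.70). For 3R with 3LHet it was 1.74 (1.67 to 1.81), the weakest of the 3. Ratios for Het arms of other chromosomes, YHet apart, lay between 1.12 and 2.71. Those of 3R with 2LHet (1.12, 0.941 to 1.32) and with XHet (1.14, 0.960 to 1.35) have intervals that include 1. The highest among other chromosomes was 3L with 2RHet. YHet gave 14 di-tags with all the segments, of which 13 were with 2L, where the ratio to the mid-arm was 10.7 with a wide interval (3.78 to 34.2, from 13 and 6 di-tags). YHet was almost empty, with 60 di-tag ends over 19 filled bins and a median total of 2. Whether these few reads were placed correctly was not tested.

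**Figure D2:**
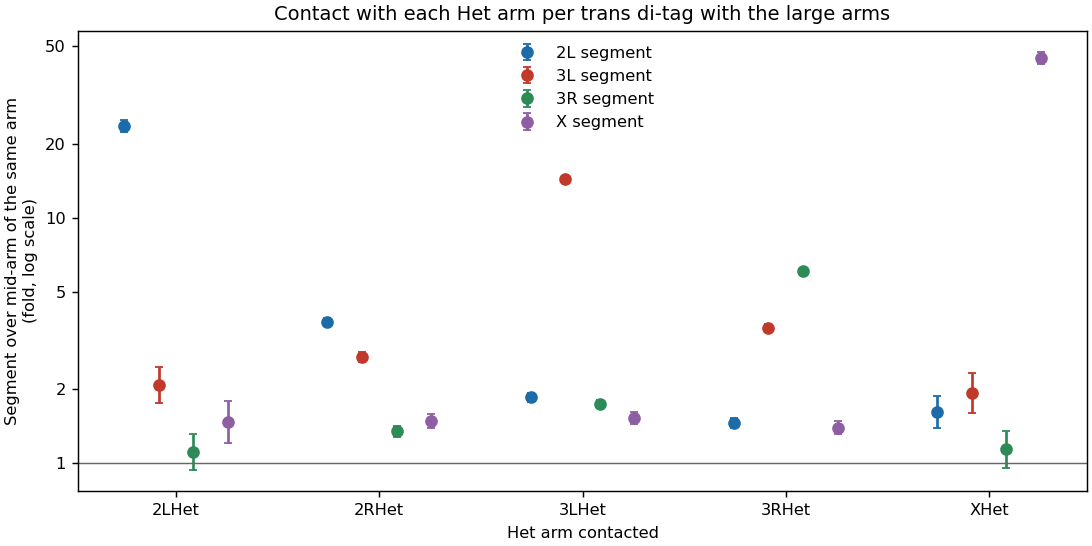
Ratio of segment to mid-arm for contact with each Het arm, per trans di-tag with the large arms (log scale), with YHet left out. Points are the 4 segments and bars are 95% intervals for counting error. The own Het arm stands at 23.7 (2L), 14.4 (3L), 6.10 (3R) and 44.7 (X).

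The own Het arm made up 38.0% of the Het contacts of the 2L segment, 79.1% for 3L, 70.03% for 3R and 68.4% for X. On 2L a further 29.99% was contact with 2RHet. Leaving out the Het arm of the same name, the Het share of the segments was 1.99 times that of the mid-arm bins. Seen from the Het side, the segments took 53.3% of the large-arm di-tags of XHet and 46.8% of those of 2LHet, but 12.2% of those of 2RHet, whose own arm has no member.

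The segments were also compared with each other in trans. The expected number of di-tags for a bin pair was the product of the trans totals of both bins. It was scaled so that observed over expected is 1 over all bin pairs of each pair of arms. Between segments of different arms 21853 di-tags were observed where 18508 were expected, a ratio of observed to expected of 1.18 (95% interval 1.17 to 1.20). Between mid-arm bins the ratio was 1.03 (1.03 to 1.03), and between segments and mid-arm bins 0.878 (0.873 to 0.882). The segments therefore contacted each other 1.15 times as much as mid-arm bins did (1.13 to 1.16). Without any correction, the mean was 0.0936 di-tags per bin pair between segments and 0.0657 between mid-arm bins.

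The trans total of a member includes its contacts with Het arms and with the other segments, which raises what is expected of it. Other totals leave both out, and chromosome 4 as well, by counting only partners on the large arms outside the segments. With these totals the segments gave 1.58 (1.558 to 1.6001), the mid-arm bins 1.00, and segments with mid-arm bins 0.998. The last 2 are close to 1 partly by construction, since such totals count contact with the rest of the large arms. The ratio of segments to mid-arm bins was then 1.58 (1.556 to 1.599). The size of the effect thus rests on the choice of totals. With the normalised signal of the authors, averaged per bin pair, the ratio was 3.79.

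**Figure D3:**
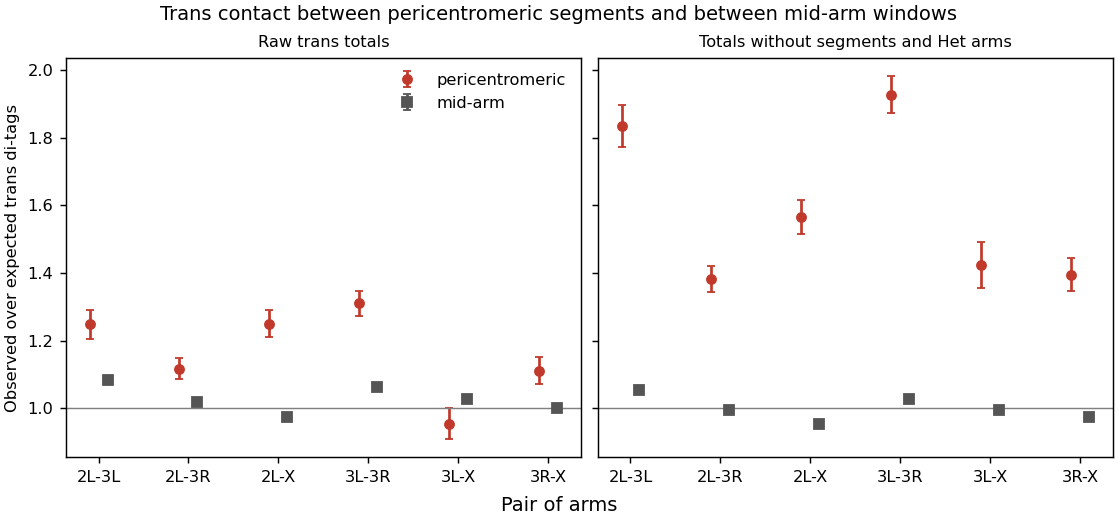
Observed over expected trans di-tags for each pair of arms, between pericentromeric segments (circles) and between mid-arm windows (squares), with bars for 95% counting intervals. With raw trans totals (left) the segments are above the mid-arms for 5 of the 6 pairs, and with totals that leave out segments and Het arms (right) for all 6.

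Among the 6 pairs of arms, 3L with 3R gave the highest ratio under raw trans totals, at 1.31 (1.27 to 1.35). The pairs of 2L with 3L and of 2L with X followed at 1.25 each (1.21 to 1.29 for both), then 2L with 3R at 1.12 (1.09 to 1.15) and 3R with X at 1.11 (1.07 to 1.15). The pair of 3L with X was the only one below its mid-arm value, at 0.955 (0.910 to 1.00) against 1.03. With totals free of segments and Het arms this pair stood at 1.42 (1.36 to 1.49) against 0.997, so that its direction depends on the totals. The other pairs were then between 1.38 (2L with 3R) and 1.93 (3L with 3R), and 2L with 3L stood second at 1.83 (1.77 to 1.90). The order of 2L with 3R, 3R with X and 3L with X is not resolved by these intervals.

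Contact was not confined to the innermost bins. With totals free of segments and Het arms, the inner 1 Mb of different arms gave 1.81 (1.76 to 1.86), the outer parts 1.46 (1.429 to 1.501) and inner with outer parts 1.56 (1.53 to 1.59). Under raw trans totals the order turned, with 1.13 (1.10 to 1.16) for the inner 1 Mb and 1.27 (1.24 to 1.30) for the outer parts. With totals free of segments and Het arms, the inner parts of 2L and 3L stood at 2.61 (2.42 to 2.80), above 3L and 3R at 1.93 (1.81 to 2.06). Those of 2L and X stood at 2.16 (2.02 to 2.30), and this interval overlaps that of 3L and 3R. Of the 870 di-tags between the inner parts of 2L and X, 95 came from 1 bin pair, described below.

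In contrast, the segments made few contacts with the opposite ends of the arms. Between segments and telomeric megabases of other arms the ratio was 0.707 (0.695 to 0.720) with raw trans totals and 0.783 (0.770 to 0.797) with the other totals. The lowest value was for the 3L segment with the telomeric end of 3R, at 0.497. Telomeric megabases contacted each other at 1.78 (1.74 to 1.82) and 1.65 (1.62 to 1.69), so that under raw trans totals telomeric ends stand above the pericentromeric segments. With the other totals the pericentromeric value was 0.954 of the telomeric value (0.929 to 0.980).

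**Figure D4:**
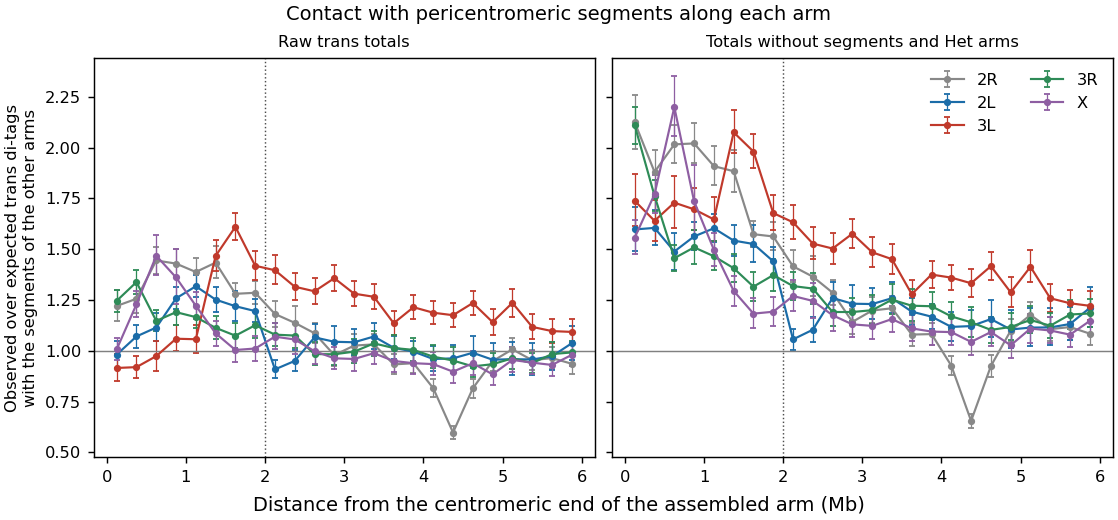
Observed over expected trans contact with the pericentromeric segments of other arms, in steps of 250 kb from the centromeric end of each arm (Mb), under raw trans totals (left) and totals without segments and Het arms (right). Bars are 95% counting intervals and the dotted line marks 2 Mb. Under the second totals the highest value of each of the 5 arms lies within 2 Mb of its end, with an abrupt drop on 2L at 2 Mb and a dip on 2R between 4 and 5 Mb.

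Along the arms, contact with the segments followed different courses under the 2 kinds of totals. With raw trans totals the innermost steps were not the highest, and on 3L the value was 0.916 in the innermost 250 kb, 1.47 in the step from 1250 kb and 1.61 in the step from 1500 kb. On 2L it was 0.981 in the innermost step and 1.32 in the step from 1000 kb. With totals free of segments and Het arms contact was highest within the segments, without a common edge at their limits. With these totals, 3R fell from 2.11 in the innermost 250 kb to 1.76 and 1.46 in the next steps, and stood at 1.37 in the last step inside the segment and 1.32 just outside it. The X segment peaked at 2.199 in the step that starts at 500 kb and fell to 1.29 by 1250 kb. That step of X holds the 95 di-tags of a single bin pair with 2L. On 3L the highest value, 2.07, lay in the step from 1250 to 1500 kb, where the Het share drops, and contact was still 1.63 just beyond the segment. Only 2L had a step at the limit, from 1.44 in the last step inside to 1.06 in the next, and contact with the mid-arm bins of other arms rose there from 1.02 to 1.26 under raw trans totals. At the telomeric ends of these 4 arms the outermost steps were between 0.686 (3R) and 0.812 (2L).

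The edge of 2L coincides with strong contact to a distal part of 3R. Blocks of 250 kb on different large arms were called when they held at least 50 di-tags and at least 3 times the expected number. Over all arms 0.141% of block pairs, 128 of 90761, passed. Of pairs that join a segment to a block elsewhere 18 of 11325 passed, or 0.159%, and of pairs between segments 1 of 384, or 0.26%, so that the segments are near the background in both. The most marked was between 21000001 and 21250000 on 2L and 18750001 and 19000000 on 3R, with 792 di-tags where 89.1 were expected, a ratio of 8.89 (8.28 to 9.54). The next 3R block, from 19000001 to 19250000, had 764 di-tags with the same 2L block, a ratio of 5.53. Both 3R blocks lie in the mid-arm window, and in the profile of 3R they give the highest contact with segments outside the pericentromeric end, at 1.27 in the step that starts at 18750 kb. Cultured lines can carry rearranged chromosomes, and whether the order of these arms differs from that of the reference genome was not tested.

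Of the other block pairs, 14 lay between 22250001 and 23000000 on 2L and the proximal 1250 kb of 2R, across the centromere of chromosome 2. Their ratios were between 3.33 and 4.82, and they form a broad field rather than a point. A further pair lay between the block at 1500001 to 1750000 on 3R and that at 5000001 to 5250000 on 2L (251 di-tags, ratio 6.37, 5.61 to 7.21), and another between 23250001 to 23500000 on 3L and 1250001 to 1500000 on 2R (126 di-tags, ratio 6.00, 5.00 to 7.14). Leaving out all 128 block pairs, an alternative chosen after the data had been seen, changed the ratio of segments to mid-arm bins little, from 1.15 to 1.13.

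Over the whole proximal 2 Mb of 2R, contact with the 2L segment was 2.00 times that expected (1.95 to 2.05), higher than for any pair of the 4 segments. The same part of 2R gave 1.19 with 3L (1.14 to 1.24), 1.01 with 3R (0.969 to 1.04) and 0.941 with X (0.898 to 0.985). With totals free of segments and Het arms these values were 2.62, 1.85, 1.32 and 1.25, all above those for the mid-arm of 2R, which lay between 0.924 and 1.03. On chromosome 3 the whole segments of 3L and 3R led the pairs of segments, but in the inner 1 Mb they did not, at 1.06 (0.992 to 1.13) under raw trans totals against 1.42 for 2L with X and 1.39 for 2L with 3L. The value for 2L with X includes the 95 di-tags of 1 bin pair.

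Chromosome 4, a small and largely heterochromatic chromosome, took 2.53% of the trans di-tags of the segments (2.49 to 2.57%), 1.49% in the mid-arm bins and 1.26% near telomeres. The shares were 2.54% for 2L, 2.35% for 3L, 2.97% for 3R and 2.03% for X. On 3R it was 4.77% in the innermost 250 kb and fell to 1.75% in the last step of the segment. On 3L, by contrast, it was 1.99% in the innermost step and highest, at 3.27%, in the step from 1500 to 1750 kb.

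Single bins were then considered. Of 735 members with at least 5 expected di-tags, 74 contacted the segments of other arms at 1.5 times the expected level or more, with 12 of 174 on 2L, 37 of 187 on 3L, 11 of 200 on 3R and 14 of 174 on X. The share over all bins tested on the 4 arms was 1.36%, against 10.1% in the segments, and 15 of 4852 mid-arm bins passed. Among the members with at least 0.25 of the median total of the arm, the median bin stood at 1.18 on 2L, 1.25 on 3L, 1.17 on 3R and 1.09 on X. The lower quartiles lay between 0.965 (X) and 1.06 (3R), so that a modest excess was spread over most bins.

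Among those bins the highest on 2L, from 21690001 to 21700000, had 36 di-tags with other segments where 8.80 were expected, a ratio of 4.09 (2.87 to 5.67). It is an unusual bin with only 147 trans di-tags in a total of 3143, and its 36 di-tags were spread over 33 bin pairs. On 3L the bin from 22920001 to 22930000 stood highest at 2.31 (1.87 to 2.81, 98 di-tags). On 3R the bin from 100001 to 110000 stood at 1.87 (1.42 to 2.41, 59 di-tags), with 32.6% of its trans di-tags on Het arms. On X the bin from 22100001 to 22110000 stood at 1.92 (1.47 to 2.47, 60 di-tags), of which 14 came from a pair with 1 bin of 2L.

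Contacts between segments were otherwise thinly spread. Of the 19927 bin pairs with a di-tag, 18298 (91.8%) had exactly 1 and only 26 had more than 3. The strongest pair linked the bins at 22570001 to 22580000 on 2L and 21800001 to 21810000 on X, with 95 di-tags where 0.0351 were expected. The surrounding bins within 50 kb had 7 di-tags where 4.30 were expected, so that the excess is held by this pair. It supplies most of the 166 di-tags of the only pair of blocks called between segments, 22500001 to 22750000 on 2L and 21750001 to 22000000 on X. The next pairs, also between 2L and X, had 16 and 14 di-tags, with neighbouring ratios of 1.25 and 1.40. Whether these bins share repeated sequence was not tested.

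Within the segments, the mean normalised contact between bins of the same arm at distances of 20 to 1000 kb stood above that of the mid-arms on 2L, 3L and X, but not on 3R. At 100 kb the mean normalised signal was 116 on 2L against 96.9 in its mid-arm, 222 against 108 on 3L, 84.6 against 92.0 on 3R and 184 against 107 on X. These are ratios of 1.20, 2.06, 0.920 and 1.72, and 1.51 when combined. An approximate interval of 1.49 to 1.53 was scaled from that of the summed raw di-tags. It leaves out the weight that normalisation gives to thin bins, and may be too narrow. The combined ratio grew from 1.14 at 20 kb to 1.39 at 50 kb and 1.81 at 200 kb. With bins of low total left out it was 1.04 at 20 kb, 1.27 at 100 kb and 1.43 at 200 kb. On 3R the corresponding values were 0.944 at 20 kb, 0.801 at 200 kb, 0.623 at 500 kb and 0.889 at 1000 kb, all below 1. On 2L the mean and the median differ, as its median ratio was 1.10 at 20 kb, 0.991 at 200 kb and 0.736 at 500 kb. In the outer parts, without low-total bins, the ratio also fell on 2L, from 0.904 at 20 kb to 0.394 at 500 kb, and on 3L, from 1.19 to 0.616. At 500 kb the mean and the median over bin pairs part, at 2.55 and 1.15 for the combined ratio, with 2333 di-tags over 576 bin pairs.

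**Figure D5:**
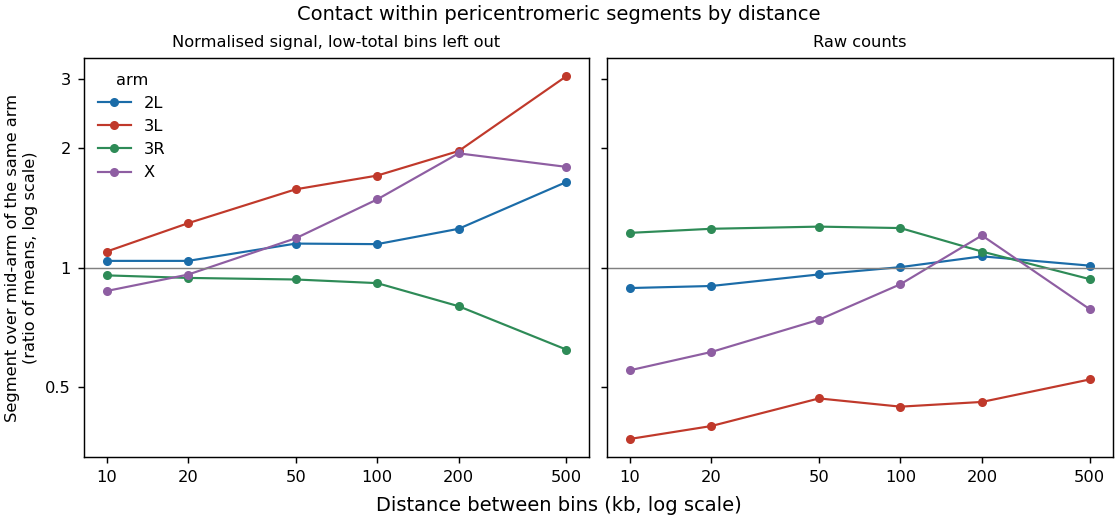
Mean contact between bins of the same segment over that between mid-arm bins of the same arm, against distance between bins (kb), both on log scales, for the 4 arms. With the normalised signal and low-total bins left out (left) 3L reaches 1.97 at 200 kb and 3R falls to 0.801, and with raw counts (right) 3L reaches no more than 0.524.

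The direction of the combined value depends on the normalisation, as raw counts gave 0.917 at 100 kb and iterative correction of the raw map of each arm gave 1.17. On raw counts the ratio was 0.447 on 3L, the most thinly covered segment, and 1.26 on 3R, the best covered. On 3R, too, the direction turns between raw counts and normalised signal. The rise of the normalised ratio was steepest in the inner 1 Mb, where the ratios at 100 kb were 1.58 (2L), 2.49 (3L), 1.03 (3R) and 2.24 (X). In the outer parts they were 0.746, 1.59, 0.825 and 1.21. With low-total bins left out, the ratios of the inner 1 Mb were 1.56, 2.54, 1.03 and 1.75. Those of the outer parts were then 0.784, 1.43, 0.817 and 1.23. As shares of cis di-tags, 38.3% in the segments joined bins within 50 kb (37.7% in the mid-arm bins) and 10.7% joined bins more than 2 Mb apart (14.2%). The arms differ in the former share, which was 43.6% on 3R (39.1% in its mid-arm) and 38.6% on 2L (36.3%), but 34.0% on 3L (37.7%) and 30.7% on X (37.4%). Near telomeres the share beyond 2 Mb was 10.7% as well. Bins of the segments and of the telomeric megabases have almost no positions beyond 2 Mb on the side of the arm end. Mid-arm bins have such positions on both sides, so that these shares are not compared like for like.

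TADs, the segments of enhanced interaction that the authors derived from the normalised map, were fewer per megabase at the pericentromeric ends. Of the 1308 TADs of the map, 66 lay mostly inside the segments, with 17 on 2L, 13 on 3L, 23 on 3R and 13 on X. This is 8.17 per Mb against 10.95 per Mb for the 536 TADs of the mid-arms. On 3R the density was 11.5 per Mb, as in its mid-arm (11.04), whereas on 2L, 3L and X it was 8.46, 6.37 and 6.40. Low-total bins numbered 31 on 2L, 66 on 3L and 33 on X, but 1 on 3R. Whether thin coverage affected the TAD calls was not tested. The median size was 75 kb (95% interval 50 to 90) against 60 kb (60 to 70), and these intervals overlap.

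The largest TAD on X covers 490 kb from 20400001 to 20890000. That on 3L covers 400 kb from 23730001 to 24130000, that on 2L 360 kb from 21760001 to 22120000, and that on 3R 310 kb from 1690001 to 2000000. The inner 1 Mb of 3L was divided into 4 TADs with a median of 275 kb, and that of 3R into 11 with a median of 80 kb. Of the 100 bins in that part of 3L, 52 had a low total. The X segment combined large and small TADs, with 3 of its 13 no longer than 20 kb.

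On the normalised signal, TAD boundaries separated contacts to a similar degree in both places. At each boundary the normalised signal across it was compared with that within either side at equal distances, in a square of 50 kb. The median log2 ratio was -0.47 (95% interval -0.70 to -0.35) over 56 boundaries of the segments and -0.53 (-0.56 to -0.49) over 529 of the mid-arms. Values below 0, meaning less contact across than within, were found at 54 of the 56 boundaries (96.4%) and at 512 of the 529 in the mid-arms (96.8%). On raw counts these shares differed more, with 46 of the 56 (82.1%) against 491 of the 529 (92.8%). The raw medians were -0.56 and -0.49. On the normalised signal, the arms of the segments also differed. The medians by arm were -0.48 (2L), -0.54 (3L), -0.65 (3R) and -0.42 (X). The boundaries were called on this same map, so that their depth is a description of it.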

How the data were processed

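Hi-C libraries of Kc167 cells (2 replicates, DpnII) were processed by the authors with HiCUP and Bowtie2 2.2.6 on release 5 (dm3), pooled and binned at 10 kb. They deposited raw counts of di-tags for 8265968 bin pairs (34287983 di-tags), a normalised signal for the same pairs made with GOTHiC, and the positions of HiCseg segments after removal of the weakest borders. Cis pairs listed in both directions in the normalised file (4366982 repeats, identical) were used once.

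The total of a bin is the number of di-tags with an end in it, those within the bin counted once. Poisson, binomial and ratio intervals were exact (95%), and those of medians came from order statistics. The interval of the combined cis ratio was scaled from that of the summed raw di-tags and is approximate. Low-total bins had under 0.25 of the arm median. Named were the 4 segments, the largest TAD of each, the highest bin of each with at least that total, and the 3 bin pairs with the most di-tags. Named blocks were chosen after their values were seen. The members and lists were chosen with earlier results of these data known, and the inner 1 Mb, the steps and blocks of 250 kb and the limits of calls were set later. Values were computed in Python 3.11.15 (scipy 1.17.1 for intervals, numpy 2.4.6, matplotlib 3.10.9 for plots, pandas 2.3.3) and tested on simulated maps. Alternatives are listed in the closing section. No gene names were assigned, as the annotation at hand is on a later release.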

Additional observations from a re-analysis of the deposited data

How the results depend on the processing

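No paired analysis was possible because the authors pooled both replicates, and for the same reason no replicate could be left out. With 1 pooled map, a value counts as moved where it leaves the counting interval of the reported value, which is narrow. For the cis ratio that interval is only approximate. For trans contact of segments relative to mid-arm bins (1.15), the ratio was 1.43 without correction, 1.47 with totals over the large arms only, 1.58 with totals free of segments and Het arms, 1.504 after iterative correction, 3.79 with the normalised signal, 1.17 (1.165) with the mid-arm narrowed to 40 to 60%, 1.13 (1.127) without 3L with 3R, 1.13 (1.129) without the blocks at 3 times the expected contact (added after the data had been seen), and 1.13 to 1.16 when each arm was left out in turn. The trans share ratio of 1.35 became 1.39 for the median over bins, 1.20 for partners on large arms, 1.32 without low-total bins and 1.36 without the blocks. The Het share ratio of 3.96 became 5.35 as a share of all di-tags, 2.46 for the median over bins, 1.99 without the Het arm of the same name, 3.75 without low-total bins, and 3.28 to 4.42 when each arm was left out. The cis ratio of 1.51 at 100 kb became 1.17 after iterative correction, 1.27 without low-total bins and 1.29 to 1.69 when each arm was left out, and reversed to 0.917 on raw counts (the cause was not tested). Of 40 alternatives, 1 reversed a direction and 26 moved a value up or down without reversing it. The other 13 did not leave the interval, and include all of those for coverage, TAD size and boundaries. Of the bin pairs between segments with a di-tag, 91.8% hold 1, so that most single pairs cannot be compared at this depth.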
